A study of Homo sapiens with 12 samples.

Results

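In human neuron cultures with and without knockdown of ZCCHC17, 32 genes of heterogeneous nuclear ribonucleoproteins (hnRNPs) and their FET family relatives were followed. The list was drawn up by name, with earlier results of these data known. All 32 were found among the 59653 gene symbols of the count table, and all 32 passed the filter on low counts, which left 24671 genes. The cultures are labelled as neurons grown from induced pluripotent stem cells, with IMR-90, a human fibroblast line, as the cell line; the sample titles carry the letters NPC, which the labels do not explain. There were 12 libraries: 6 after treatment with a negative control siRNA, called siNC, and 6 after an siRNA that targets the mRNA of ZCCHC17, a zinc knuckle protein, called siZCC. The labels give 1 line, no time after transfection and no statement on whether replicates were separate cultures, so p-values measure the spread between these libraries, which may be technical. The comparison asked how loss of ZCCHC17, named in the series title as a modulator of neuronal splicing, changed the transcripts of these RNA-binding proteins.

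hnRNPs coat newly made transcripts in the nucleus, mostly through RNA recognition motifs or K homology domains, and influence which splice sites are used, where the transcript is cleaved, and how it is exported and translated. Many act against SR proteins at splicing silencers. Several keep their own amount in check by promoting unproductive splice forms of their own transcript, which are then removed by nonsense-mediated decay. TARDBP (TDP-43), HNRNPA1, HNRNPA2B1, MATR3, TIA1 and the FET proteins EWSR1 and TAF15 carry low-complexity regions and are studied in neurons because of inherited motor neuron and muscle disease.

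ZCCHC17 itself stood at 56.9 ± 2.49 CPM (counts scaled to a common library size with TMM factors) in siNC and at 9.999 ± 0.507 CPM in siZCC (SD, n = 6 each), with no overlap. The depth was 90755953 to 120023356 counts per library in siNC and 76115083 to 105389055 in siZCC. MAP2, a neuronal cytoskeletal protein, was at 1027 CPM in siNC, the highest of 12 neuron markers. RBFOX3, a marker of mature neurons, at 1.27 CPM and TUBB3, neuronal tubulin, at 14.2 CPM were the lowest of them. The other neuron markers lay between 21.8 and 796 CPM in siNC. SOX2, a progenitor factor, was at 621 CPM, GFAP, an astrocyte filament, at 616 CPM and MKI67, a marker of dividing cells, at 205 CPM. Libraries of both groups divided by the cytokine gene IL1B, with 3 of each group at 0.0223 to 0.1 CPM and 3 at 5.22 to 15.96 CPM, and results within each side are given where they bear on a count.

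By level per length, the members spanned a wide range. HNRNPA1, a splicing repressor and the founding A-type hnRNP, was first with 176 CPM per kilobase of exon in siNC (171 to 183 over the 6 libraries), followed by the poly(C)-binding proteins PCBP1 with 126 (124 to 129) and HNRNPK with 113 (112 to 115). KHDRBS1 (79.5), HNRNPA2B1 (76.3) and HNRNPC (73.0) came next on the same scale, with ranges that overlapped between neighbours. Among the lowest were TARDBP with 14.5, HNRNPUL2 with 10.8 and KHDRBS3 with 1.06 CPM per kilobase. HNRNPLL ranked between TARDBP and HNRNPUL2. The lengths are those of all annotated exons in GENCODE v29, so a gene with many annotated but unused exons is placed too low. Other records on the same strand overlap 29% of the exon bases of TARDBP and 44.1% of those of HNRNPUL2, and none of HNRNPLL. Reads shared with such records may be unassigned, so TARDBP and HNRNPUL2 may be placed too low for this reason as well. KHDRBS3 rested on the fewest counts, 555 in its lowest library.

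After the knockdown, 14 of the 32 members were lower, 2 were higher and 16 did not pass the test (edgeR's quasi-likelihood test, adjusted p under 0.05 by Benjamini-Hochberg over all genes). That is 50% of the members, beside 22.2% of all genes tested. In the downward direction it is 14 of 32, beside 10.8% of all genes, and in the upward direction 2 of 32, beside 11.4%. Among the 11543 genes at or above the level of the lowest member, 31.9% were called, 14.8% lower and 17.1% higher. The changes were small. The median log2 fold change of the members was -0.07, beside -0.0016 over all genes tested, and 24 of 32 had a negative sign, beside 50.4% of all genes. The groups did not overlap in 8 members, 7 lower and 1 higher; over all genes 9.74% did not overlap, 4.5% lower and 5.25% higher. Within the libraries with more IL1B the member median was -0.07 and within those with less IL1B it was -0.06; with 3 against 3 libraries, 8 members were called in the former, all lower, where 3.98% of all genes were lower. In the latter 2 members were called, both lower, where 2.95% of all genes were lower, and a count of 2 is too small to set apart from that share. Of the 16 calls, 11, all of them lower, were kept in each of 12 fits that left out 1 library and in 9 other fits of the 12 libraries. In bulk RNA, fewer cells of a type and less RNA per cell cannot be told apart.

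**Figure D1:**
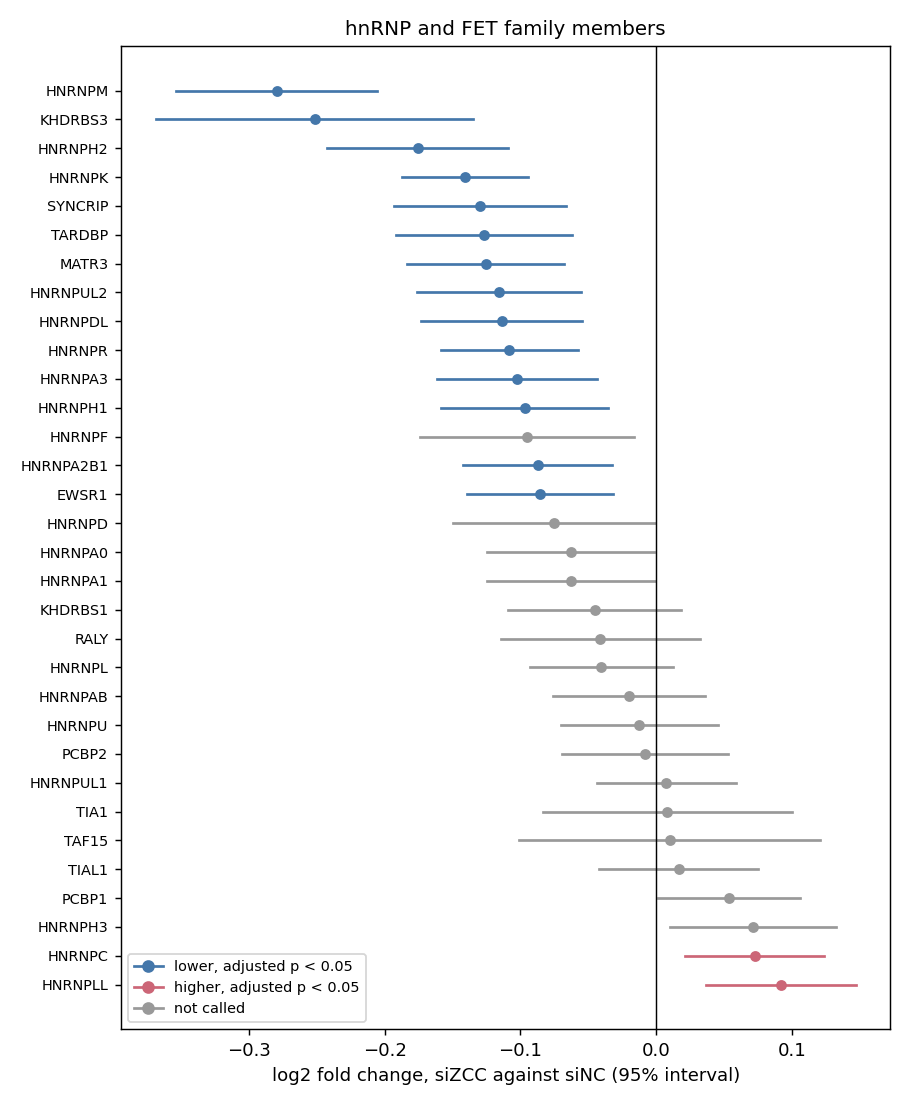
Log2 fold change of each of the 32 members in siZCC against siNC (points) with its 95% interval (lines), ordered by size. The 14 members called lower are blue, the 2 called higher are red and the 16 not called are grey; HNRNPM and KHDRBS3 lie farthest to the left.

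In siZCC most markers of dividing cells were lower. Of 16 proliferation markers, 11 fell and 0 rose, and their summed level ran from 1049 to 1148 CPM in siNC and from 854 to 998 CPM in siZCC. MKI67 fell from 205 to 143 CPM (log2 fold change -0.52, adjusted p 1.90e-05 by edgeR). Of 12 neuron markers 4 fell and 1 rose, with sums of 3531 to 4015 CPM in siNC and 3357 to 3724 CPM in siZCC. Of 10 progenitor markers 1 fell and 4 rose (6292 to 6699 CPM and 6337 to 6883 CPM), and of 8 astrocyte markers 1 fell and 3 rose (1637 to 1859 CPM and 1703 to 2025 CPM). Mesenchymal markers had 3 lower and 0 higher of 7 (164 to 394.5 and 110.0 to 231 CPM). Pluripotency markers had 2 higher and 0 lower of 3 tested (15.4 to 16.97 and 19.98 to 21.9 CPM). Most of the difference in the pluripotency sums came from 1 gene, DPPA4, with a mean of 4.36 CPM in siNC and 8.08 CPM in siZCC. Microglia markers summed to at most 2.25 CPM in any library, and oligodendrocyte markers to 143.5 to 180.3 CPM in siNC and 147 to 180.0 CPM in siZCC, with 0 of either list called. Beside these counts, 10.8% of all genes tested were lower in siZCC and 11.4% higher. The part of these cell types in the changes of the members was not tested.

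HNRNPM, a splicing regulator that binds GU-rich introns, and MATR3, a nuclear matrix protein with RNA recognition motifs and zinc fingers, were both lower. The HNRNPM gene lies on chromosome 19 (8444767 to 8489114, plus strand, GRCh38). HNRNPM ran from 229 to 236 CPM in siNC with a median of 234, and from 181 to 216 CPM in siZCC with a median of 188. All 6 siZCC libraries were below all 6 siNC libraries, but siZCC replicate 5 stood apart at 216 CPM, with the other 5 at 181 to 192 CPM. The log2 fold change was -0.28 (SE 0.0350, adjusted p 3.50e-05 by edgeR), a fall of 17.6% and the largest among the members; without siZCC replicate 5 it was -0.32. It was -0.24 in the libraries with more IL1B and -0.32 in those with less.

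MATR3 ran from 564 to 606 CPM in siNC with a median of 586, and from 521 to 563 CPM in siZCC with a median of 531. The groups did not overlap, though the highest siZCC library lay just under the lowest siNC library. Its log2 fold change was -0.13 (SE 0.0274, adjusted p 0.00351 by edgeR). GENCODE v29 holds 2 overlapping gene records under this symbol, and the table gives 1 row for both.

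The K homology domain proteins split. HNRNPK, which binds C-rich RNA and DNA, ran from 570 to 589 CPM in siNC (median 580) and from 517 to 531 CPM in siZCC (median 527). The gap between the groups was wider than the range within either, and the log2 fold change was -0.14 (SE 0.0220, adjusted p 2.66e-04 by edgeR). KHDRBS3, the T-STAR splicing regulator enriched in neurons, ran from 8.43 to 9.55 CPM in siNC (median 9.23) and from 7.20 to 8.88 CPM in siZCC (median 7.43). In siZCC, replicate 3 lay inside the siNC range and the other 5 libraries below it. The fitted log2 fold change was -0.25 (SE 0.0554, adjusted p 0.00369 by edgeR). PCBP1, PCBP2 and KHDRBS1 (Sam68, a signal-regulated splicing factor) did not pass the test. PCBP1 ran from 217 to 226 CPM in siNC and from 223 to 239 CPM in siZCC, with a log2 fold change of 0.05 (95% interval 0.0017 to 0.11). PCBP2 had -0.01 (-0.07 to 0.05) and KHDRBS1 -0.05 (-0.11 to 0.02). PCBP1 is intronless, and 52.2% of its exon bases lie opposite exons of a gene on the other strand; since the strand setting of the counting is not stated, its value is uncertain.

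The F and H proteins bind G-rich runs and act as enhancers or silencers of splicing according to position. HNRNPH2, encoded on the X chromosome, ran from 108 to 116 CPM in siNC (median 112) and from 94.6 to 106 CPM in siZCC (median 99.2), without overlap. The fitted log2 fold change was -0.18 (SE 0.0315, adjusted p 8.05e-04 by edgeR). HNRNPH1, its closest relative, ran from 374 to 398 CPM in siNC (median 386) and from 345 to 378 CPM in siZCC (median 364), and all siZCC libraries but replicate 2 lay below the siNC range. Its log2 fold change was -0.10 (SE 0.0292, adjusted p 0.0245 by edgeR), and 5 of the 12 fits with 1 library removed (siNC replicates 1, 4 and 6, siZCC replicates 1 and 4) lost the call, with adjusted p of 0.0513 to 0.0724. HNRNPF had -0.09 (95% interval -0.17 to -0.02, adjusted p 0.0789 by edgeR) and passed without siNC replicate 2 (adjusted p 0.0498). HNRNPH3, another H protein, had a positive value of 0.07 that did not pass (0.01 to 0.13, adjusted p 0.0883 by edgeR), at 253 to 271 CPM in siNC and 267 to 294 CPM in siZCC.

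Promoter sequences of 29 of the 32 members were read from RefSeq (GRCh38.p14); HNRNPA1, KHDRBS3 and TAF15 had no entry. The 120 bases before the start are shown for HNRNPH2, SYNCRIP and HNRNPH1, the 3 members with the smallest p among those lower whose 120 bases hold no exon annotated in GENCODE v29, to let these fallen genes be compared at the sequence level. The capitals mark E-boxes (CACGTG) and the core of the cyclic AMP response element (TGACGT).
HNRNPH2: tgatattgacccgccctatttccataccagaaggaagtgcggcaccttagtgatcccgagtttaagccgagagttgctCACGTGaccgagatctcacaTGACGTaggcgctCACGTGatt
SYNCRIP: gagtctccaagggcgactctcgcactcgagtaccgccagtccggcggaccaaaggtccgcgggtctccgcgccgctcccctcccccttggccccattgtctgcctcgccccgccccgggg
HNRNPH1: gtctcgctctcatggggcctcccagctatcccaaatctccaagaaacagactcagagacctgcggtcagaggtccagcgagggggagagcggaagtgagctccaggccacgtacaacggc
They lie at chrX:101408102-101408221 on the plus strand, chr6:85643871-85643990 on the minus strand and chr5:179634785-179634904 on the minus strand. Their GC content was 51.7%, 73.3% and 60.8%. The HNRNPH2 stretch holds 2 E-boxes and 1 such core, while the SYNCRIP and HNRNPH1 stretches hold none of the motifs searched on either strand.

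Over the window of 300 bases (250 before and 50 after the start, both strands), the median GC content of the 29 member promoters was 66.3%, beside 58.3% of all 27305 promoters. The ETS core CCGGAAG was in 5 of 29 (17.2%, beside 10.7% of all promoters), in 0 of 13 members called lower, 1 of 2 called higher and 4 of 14 not called. The NRF1 motif was in 4 (13.8%, beside 6.28%), 2 of 13 called lower (HNRNPM and EWSR1) and 2 of 14 not called (KHDRBS1 and TIA1). CCAAT was in 13 (44.8%, beside 35.7%). The TATA box TATAAA was in 4 (13.8%, beside 12%) and the YY1 motif AAGATGGC in 0 (beside 3.03%). CACGTG, searched after it had been seen in HNRNPH2, was in 9 (31.0%, beside 7.43%), with HNRNPH2 itself counted among the 9. It was in 5 of 13 called lower, 0 of 2 called higher and 4 of 14 not called. TGACGT, also searched afterwards, was in 3 (10.3%, beside 8.32%). The 27305 promoters were not held to the filter on low counts, which all members passed, and they were not matched to the members for GC content. These are matches of letters and do not show a bound factor.

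HNRNPR and SYNCRIP (hnRNP Q), near-identical in domain layout and both found in neuronal RNA granules, fell by similar amounts. HNRNPR ran from 214 to 221 CPM in siNC (median 216) and from 194 to 207 CPM in siZCC (median 200), with a log2 fold change of -0.11 (SE 0.0240, adjusted p 0.00386 by edgeR). SYNCRIP ran from 146 to 158 CPM in siNC (median 150) and from 131 to 145 CPM in siZCC (median 138), with a log2 fold change of -0.13 (SE 0.0302, adjusted p 0.00533 by edgeR). Neither gene's groups overlapped.

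TARDBP encodes TDP-43, a repressor of cryptic exons that controls its own transcript, and lies on chromosome 1 (11012344 to 11026420, plus strand, GRCh38). It ran from 86.3 to 89.7 CPM in siNC (median 87.9). In siZCC it ran from 76.8 to 87.4 CPM (median 80.1), with replicate 2 inside the siNC range and the other 5 libraries below it. The log2 fold change was -0.13 (SE 0.0307, adjusted p 0.00695 by edgeR), a decrease of 8.4%. Of 32 transcripts annotated for this gene, 12 are of the nonsense-mediated decay type, and the table does not tell them apart. Exons of a second GENCODE v29 record on the same strand overlap 29% of its exon bases. The count table has no row under the name of that record, so whether reads were left unassigned is not known.

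Of 15 genes known to lose normal splicing or expression when TDP-43 is depleted, 3 rose and 1 fell (26.7% called, beside 22.2% of all genes), with a median log2 fold change of 0.03. STMN2, a neuronal microtubule regulator, fell from 484 ± 37.4 to 429 ± 37.5 CPM (SD, n = 6 each), with a log2 fold change of -0.17 (SE 0.0571) and an adjusted p of 0.0381 by edgeR. AGRN, the synapse organizer agrin, rose by 0.13 (SE 0.0362) and ATG4B, an autophagy protease, by 0.08 (SE 0.0281) on the log2 scale. Cryptic exons cannot be seen in counts per gene.

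Of the FET proteins, which bind RNA and also take part in transcription, EWSR1 ran from 343 to 364 CPM in siNC (median 354) and from 323 to 344 CPM in siZCC (median 332). Of the siZCC libraries, 5 were below every siNC library. The log2 fold change was -0.09 (SE 0.0255, adjusted p 0.0234 by edgeR), and the call was lost without siNC replicate 1 or 4 (adjusted p 0.0508 and 0.0579). TAF15 did not pass, and its siZCC libraries were unusually spread. It ran from 137 to 144 CPM in siNC (SD 2.67) and from 128 to 169 CPM in siZCC (SD 15.3). Of the siZCC libraries, 4 lay below every siNC library and 2 above, replicate 5 with 169 CPM and replicate 6 with 148 CPM. The log2 fold change was 0.01 (95% interval -0.10 to 0.12) and turned to -0.05 without siZCC replicate 5 (adjusted p 0.366 by edgeR).

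**Figure D2:**
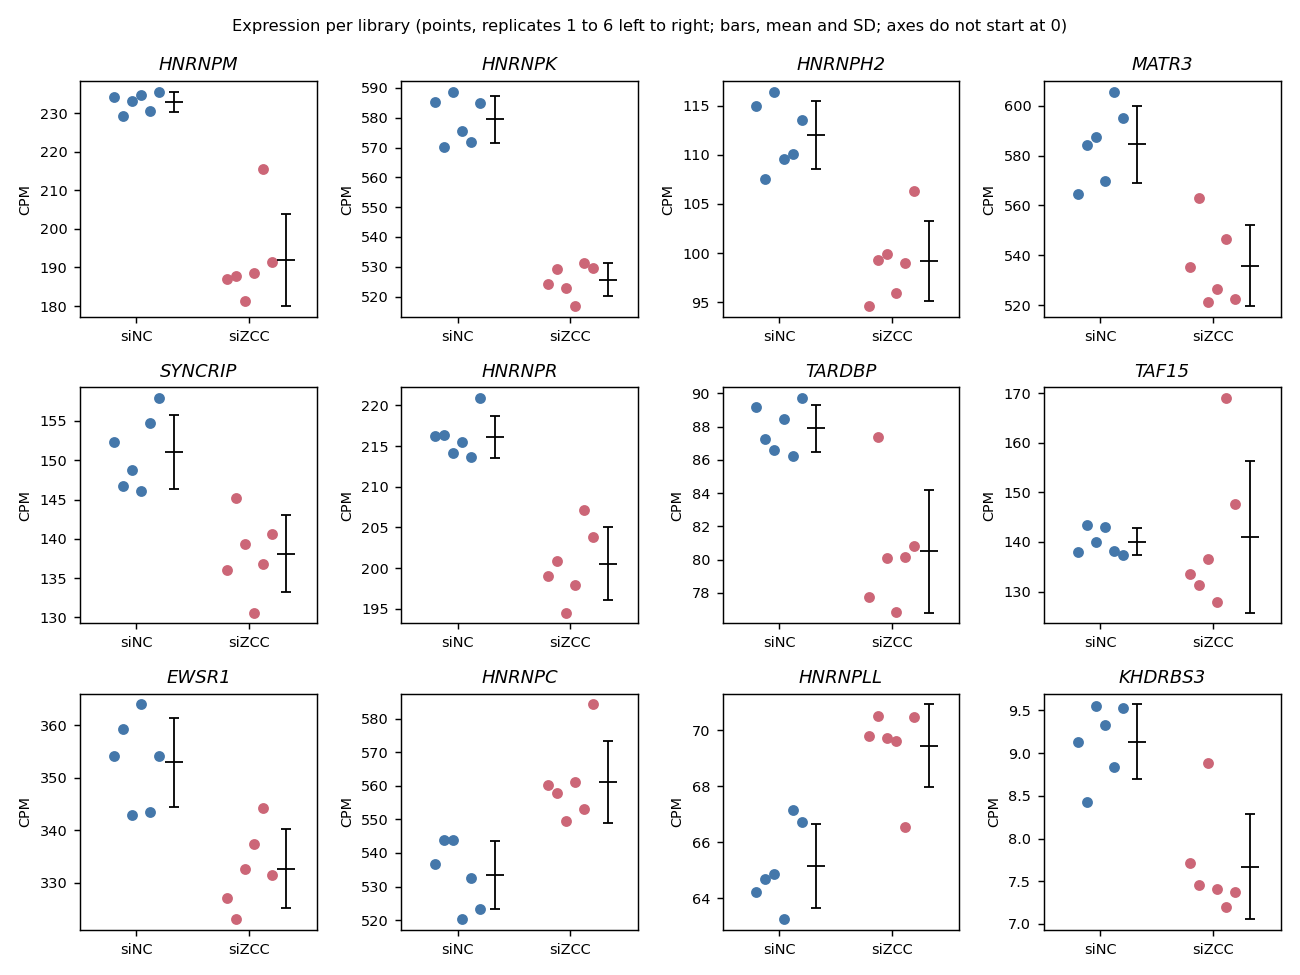
CPM in each library (points; siNC blue, siZCC red) with the mean and SD (bars) for 12 members; the vertical axes do not start at 0. HNRNPM, HNRNPK, HNRNPH2, MATR3, SYNCRIP and HNRNPR show 6 siZCC libraries below all 6 siNC libraries, HNRNPC shows them above, and TAF15 shows siZCC replicate 5 at 169 CPM.

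All 7 A/B and D type members, most of them abundant splicing repressors or mRNA stability factors, had negative log2 fold changes, beside 50.4% of all genes. Of the 7, 3 passed the test, beside 22.2% of all genes and 31.9% of genes at or above the level of the lowest member. A count of 3 is too small to set apart from these shares. HNRNPDL ran from 323 to 341 CPM in siNC (median 332) and from 298 to 328 CPM in siZCC (median 305), with a log2 fold change of -0.11 (SE 0.0282, adjusted p 0.00800 by edgeR). HNRNPA3 ran from 361 to 373 CPM in siNC (median 369) and from 325 to 362 CPM in siZCC (median 344), with -0.10 (SE 0.0279, adjusted p 0.0143 by edgeR). In both genes siZCC replicate 2 reached into the siNC range and the other 5 siZCC libraries lay below it. HNRNPA2B1, a binder of RNA trafficking signals, ran from 682 to 726 CPM in siNC (median 706) and from 639 to 684 CPM in siZCC (median 672). Its log2 fold change was -0.09 (SE 0.0260, adjusted p 0.0231 by edgeR), a call that ended on removal of siNC replicate 1 or 4, or of siZCC replicate 1 or 4, with adjusted p of 0.0517 to 0.0595.

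HNRNPA1, HNRNPA0 and HNRNPD had values of -0.06, -0.06 and -0.08 and adjusted p of 0.141, 0.138 and 0.142 by edgeR. All 3 passed when siZCC replicate 5 was left out, with -0.08 for HNRNPA1, -0.09 for HNRNPA0 and -0.10 for HNRNPD (adjusted p 0.0466, 0.0206 and 0.0475). HNRNPA1 was at 916 CPM in that library and at 813 to 876 CPM in the other siZCC libraries, and HNRNPA0 at 289 CPM beside 257 to 266 CPM. That library was the highest siZCC library for all 3 genes, so leaving it out lowers their siZCC means. HNRNPAB had -0.02 (95% interval -0.08 to 0.04). HNRNPA1 has 75 rows named as its pseudogenes in the table, which together held 2.19% to 2.71% of its own count, so part of its reads may have been set aside as ambiguous.

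HNRNPC (chromosome 14, 21209136 to 21269494) and HNRNPLL (chromosome 2, 38561978 to 38603586), both on the minus strand, were the 2 members that rose. HNRNPC, the C protein that measures transcript length and shields U-rich tracts, ran from 520 to 544 CPM in siNC (median 535) and from 549 to 584 CPM in siZCC (median 559), without overlap. Its log2 fold change was 0.07 (SE 0.0243, adjusted p 0.0403 by edgeR). The call ended in 8 of 12 fits with 1 library removed, namely siNC replicates 1, 4, 5 and 6 and siZCC replicates 1, 3, 4 and 6 (adjusted p 0.0537 to 0.113), while the siZCC value was above the siNC value in each of them. HNRNPLL, a regulator of alternative splicing first studied in lymphocytes, ran from 63.2 to 67.2 CPM in siNC (median 64.8) and from 66.5 to 70.5 CPM in siZCC (median 69.8). Of the siZCC libraries, 5 lay above every siNC library and replicate 5 did not. The log2 fold change was 0.09 (SE 0.0261, adjusted p 0.0179 by edgeR), and the call was lost without siZCC replicate 3 or 6 (adjusted p 0.0503 and 0.0536). Their relatives RALY (-0.04, 95% interval -0.11 to 0.03) and HNRNPL (-0.04, -0.09 to 0.01) did not pass.

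Of the U proteins, which bind RNA and chromatin scaffolds, HNRNPUL2 ran from 58.0 to 60.4 CPM in siNC (median 58.5) and from 52.1 to 57.3 CPM in siZCC (median 53.9), narrowly without overlap. Its log2 fold change was -0.12 (SE 0.0287, adjusted p 0.00807 by edgeR). A readthrough record, HNRNPUL2-BSCL2, overlaps 44.1% of its exon bases and had at most 20 counts in a siNC library, so reads of the shared exons may not have been assigned to either. HNRNPU ran from 583 to 633 CPM in siNC and from 593 to 638 CPM in siZCC, with -0.01 (95% interval -0.07 to 0.05). HNRNPUL1 had 0.01 (-0.04 to 0.06). The stress granule nucleators TIA1 and TIAL1, U-rich sequence binders, had 0.01 (-0.08 to 0.10) and 0.02 (-0.04 to 0.07). TIA1 was at 167 to 195 CPM in siNC and 175 to 201 CPM in siZCC, the latter with replicate 2 highest.

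Whether members of one subfamily, or members grouped together here such as HNRNPM and MATR3, which are not close paralogues, moved by different amounts was tested on the ratio of their counts within each library, which does not depend on library scaling. Of 16 pairs, 6 differed between the groups (exact permutation test, two-sided, adjusted over the 16 pairs). The log2 ratio of HNRNPH1 to HNRNPH3 was 0.55 ± 0.0658 in siNC and 0.38 ± 0.0448 in siZCC (SD, n = 6 each), a difference of -0.17 without overlap (exact permutation p 0.00216, the smallest that 6 against 6 can give; adjusted p 0.0231). HNRNPL against HNRNPLL differed by -0.13 and HNRNPUL1 against HNRNPUL2 by 0.12 (exact permutation adjusted p 0.0231 for both). HNRNPM against MATR3 differed by -0.16 (exact permutation adjusted p 0.0260). HNRNPC against RALY differed by 0.11 and KHDRBS1 against KHDRBS3 by 0.21 (exact permutation adjusted p 0.0404 for both). The HNRNPC against RALY call ended when siNC replicate 2, 3, 4 or 6, or siZCC replicate 2, 3, 4 or 6, was removed (exact permutation adjusted p 0.0563 to 0.0808). The KHDRBS1 against KHDRBS3 call ended on removal of any library other than siNC replicates 2 and 5 and siZCC replicate 3, with the same range of adjusted p in the exact permutation test.

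HNRNPH1 against HNRNPH2 differed by 0.08 (exact permutation adjusted p 0.0643), a call not reached with all libraries. HNRNPR against SYNCRIP differed by 0.02 and HNRNPA1 against HNRNPA2B1 by 0.02, with adjusted p of 0.517 and 0.384 in the exact permutation test. EWSR1 against TAF15 differed by -0.09 (exact permutation adjusted p 0.215). Without siNC replicate 3 only the HNRNPH1 to HNRNPH3 pair passed, and without siNC replicate 6 that pair and HNRNPL against HNRNPLL.

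**Figure D3:**
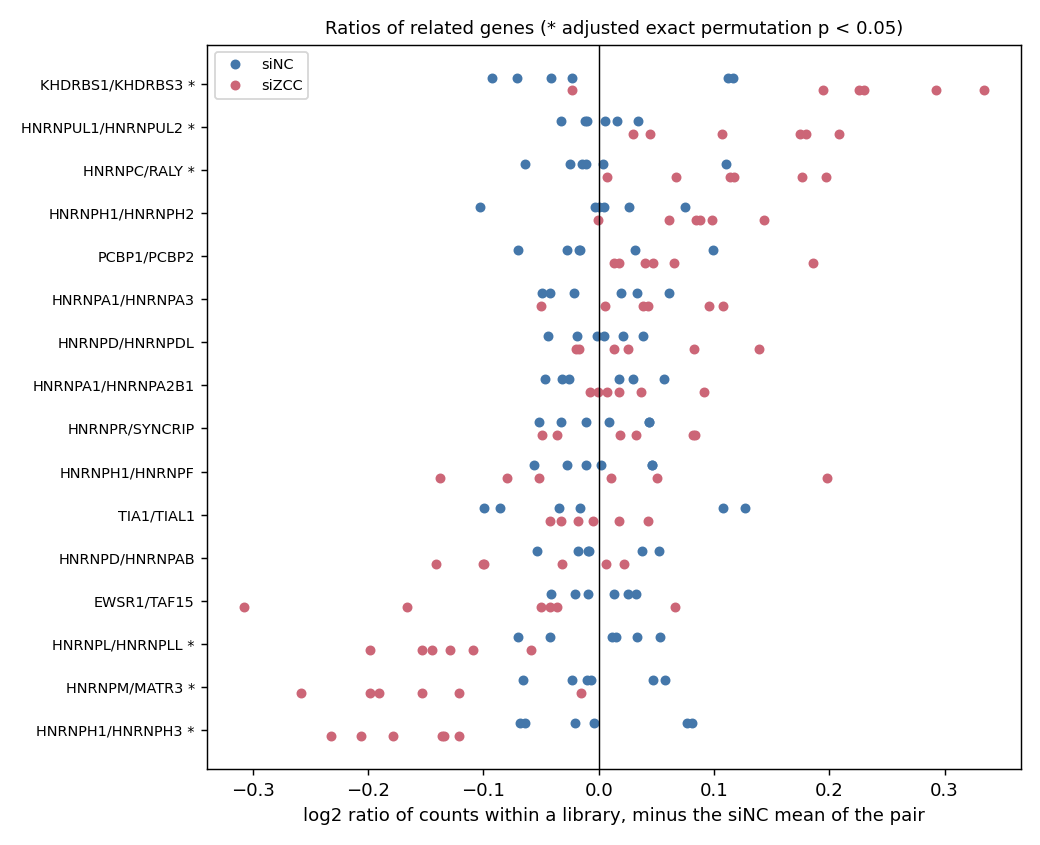
Log2 ratio of counts of related genes in each library, minus the siNC mean of the pair (siNC blue, siZCC red), ordered by the difference between the groups. The 6 pairs with an asterisk passed the exact permutation test after adjustment; HNRNPH1/HNRNPH3 shows no overlap between the groups.

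The libraries differed in how far the members moved. In siZCC replicate 1, 21 of the 32 members were below the lowest siNC library (23.8% of all genes tested) and 3 above the highest (23.5% of all genes). In siZCC replicate 4 the counts were 20 below (24.7% of all genes) and 5 above (24.4%). In siZCC replicate 5 they were 14 below (22.4% of all genes) and 5 above (23.1%). The median over the 32 members of log2 CPM minus the log2 of the siNC mean CPM was lowest in siZCC replicate 1 (-0.105) and closest to 0 in siZCC replicate 5 (-0.0321), and ran from -0.0116 to 0.00753 in the siNC libraries. In siZCC replicate 5 the proliferation markers summed to 998 CPM, beside 854 to 899 CPM in the other 5 siZCC libraries and 1049 to 1148 CPM in siNC. Without this library 19 members were called (20.1% of all genes), 17 lower (9.81%) and 2 higher (10.3%), and the member median was -0.09. As this library had the member median closest to 0, a lower median without it is not separate support for the fall. Without siZCC replicate 2, the next closest at -0.0422, the member median was -0.06.

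**Figure D4:**
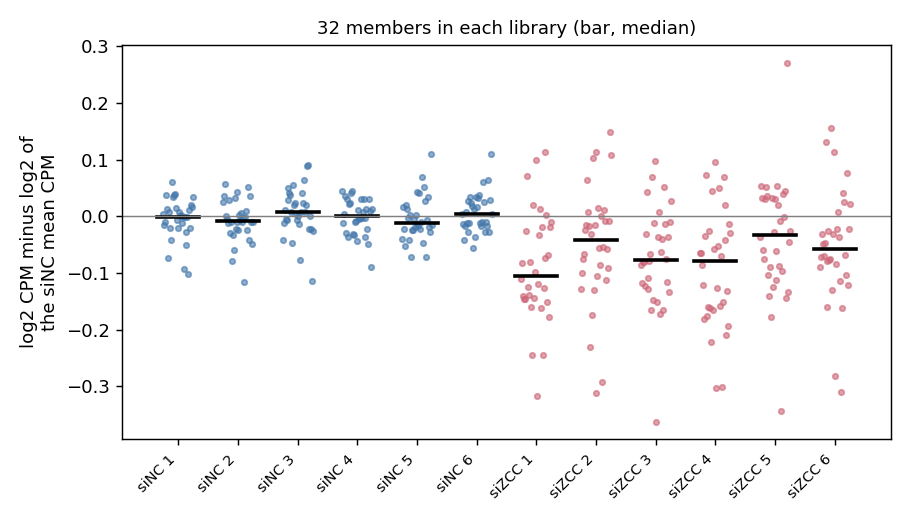
Log2 CPM of each of the 32 members (points) minus the log2 of its siNC mean CPM, by library, with the median over members (bar). The medians of the 6 siZCC libraries lie between -0.105 and -0.0321, below those of the 6 siNC libraries.

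Proteins that move or modify hnRNPs were next. Of 11 import, export and arginine methylation genes, 2 rose and 1 fell (27.3% called). This lies between the 22.2% of all genes and the 31.9% of genes at or above the level of the lowest member. TNPO2, a transportin that carries hnRNPs into the nucleus, rose from 303 ± 14.6 to 347 ± 10.2 CPM (SD, n = 6 each; 0.20, SE 0.0330, adjusted p 4.63e-04 by edgeR), while its relative TNPO1 was at 182 and 185 CPM and did not pass (adjusted p 0.810). PRMT3, an arginine methyltransferase of ribosomal protein, rose by 0.17 (SE 0.0346) and PRMT6, which methylates histones and other proteins, fell by 0.20 (SE 0.0347) on the log2 scale.

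Of 24 related RNA-binding proteins tested, 1 rose and 6 fell (29.2% called), with a median of -0.05. DHX9, an RNA helicase, fell from 268 ± 4.59 to 236 ± 6.45 CPM (SD, n = 6 each; -0.18, SE 0.0255, adjusted p 1.06e-04 by edgeR). PSPC1, a paraspeckle protein, fell by 0.20 (SE 0.0315) and RBM3, a cold-inducible relative of the hnRNPs, by 0.20 (SE 0.0367) on the log2 scale. QKI, a STAR family splicing factor of glia and progenitors, rose from 850 ± 52.0 to 974.7 ± 54.6 CPM (0.20, SE 0.0428, adjusted p 0.00337 by edgeR). KHDRBS2, a STAR relative of KHDRBS1, was not tested because its counts were too low. Of 15 stress granule genes 2 rose and 2 fell (26.7% called, median -0.0043). The granule nucleators G3BP1 and G3BP2 fell by 0.11 (SE 0.0304) and 0.09 (SE 0.0268) on the log2 scale. ATXN2L, a stress granule component, rose by 0.13 (SE 0.0291) and PABPC1, the poly(A)-binding protein, by 0.07 (SE 0.0236). Over these lists and the TDP-43 list together, 18 of 65 genes tested were called, or 27.7%, 8 higher and 10 lower. This lies between the 22.2% of all genes and the 31.9% of genes at or above the level of the lowest member.

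In GENCODE v29, 19 of the 32 members (59.4%) have an annotated transcript of the nonsense-mediated decay type, beside 35.8% of 19549 protein-coding genes in the table. A retained-intron transcript is annotated for 23 members (71.9%, beside 46.5%). Among the members called lower, 8 of 14 have a decay-type transcript, and 9 of 16 among those not called. Both members that rose have one. Splice forms were not analysed here, and well-studied genes have more annotated transcripts. The 19549 genes were not held to the filter on low counts, which all members passed.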

How the data were processed

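Total RNA from Qiazol lysates went into directional RNA-seq libraries (NEBNext Ultra II), per the labels' protocols. The authors deposited raw whole-number counts per gene symbol. The submitters' processing notes name bcl2fastq 2.17, STAR 2.7.6a, featureCounts 2.0.1 and GRCh38; the annotation and strand setting are not given in the sources used here, so reads shared by overlapping genes may be unassigned. Groups came from the sample titles.

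Counts were analysed as deposited with edgeR 4.0.16 in R 4.3.3: filterByExpr, TMM scaling, glmQLFit and glmQLFTest over all 12 libraries, with no covariate. P-values were adjusted by Benjamini-Hochberg over 24671 genes, threshold 0.05. The SE is the size of the log2 fold change divided by the root of F, and intervals are 95%. CPM is TMM-scaled; log2 CPM has a prior count of 2 and ratios one of 0.5. The biological coefficient of variation common to all genes tested was 6.55%. Members could be tighter: HNRNPUL2 had an SD of 0.86 on a mean of 58.7 CPM in siNC. Counting error was not measured against the spread of the members. Permutation tests cannot give p below 0.00216. The fit was tested on simulated data. Pairs of libraries of one group differed by 5.15 to 24.9 in chi-square per degree of freedom, so none was a copy.

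Alternatives were DESeq2 1.42.0 (size factors, Wald test), upper quartile scaling, limma voom 3.58.1, 1 surrogate variable (sva 3.50.0), no filter, a mean count of at least 50, a replicate block, the IL1B split and leaving out each library. Members and lists were chosen with earlier results of these data known. Named genes are the 32 members, ZCCHC17, up to 3 genes with the smallest p per direction of each related list, and defining markers. RBFOX3, IL1B, TNPO1, KHDRBS2 and DPPA4 were added after their values were seen. The result of 1 gene that this rule names is not reported here. Positions, exon lengths and transcript types are from GENCODE v29, promoters from RefSeq.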

Additional observations from a re-analysis of the deposited data

Results flagged for a closer look

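Each of 42 quantities (32 members, ZCCHC17, the library total and 8 marker sums) was examined in both groups, which gives 84 groups of 6 libraries. In 9 of them the gap between 1 extreme library and its nearest neighbour exceeded Dixon's 95% critical value for its share of the range of the group; chance flags about 1 in 20 groups, or 4.2 of 84. The library siZCC replicate 5 stood apart in 4 of the 9. In log2 CPM it was the highest siZCC library for HNRNPM (7.75, next 7.58) and HNRNPA0 (8.18, next 8.06), and the lowest for HNRNPLL (6.06, next 6.12). Its proliferation markers summed to 998 CPM (next 899).

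The other siZCC libraries set apart were replicate 6 for HNRNPC (9.19 log2 CPM, next 9.13), replicate 3 for KHDRBS3 (3.15, next 2.95) and replicate 2 for TIA1 (7.65, next 7.49). In siNC, replicate 3 was set apart for HNRNPUL2 (5.92 log2 CPM, next 5.87) and replicate 4 for its total of 90755953 counts (next 109973707).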

How the results depend on the processing

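The members called numbered 16 with DESeq2 size factors, a mean count of at least 50, DESeq2's Wald test, limma voom, 1 surrogate variable and the IL1B split as a block, 15 with upper quartile scaling (HNRNPC lost, adjusted p 0.0755) and 12 without a filter (HNRNPA2B1, HNRNPC, HNRNPLL and EWSR1 lost). Within the 3 against 3 libraries with more IL1B, 8 members (0 higher, 8 lower), 2043 genes of the whole table and 6 related genes were called; with less IL1B these were 2, 1602 and 6, with fewer libraries in each fit. Leaving out 1 library gave 12 to 19 members, 4484 to 5626 genes and 12 to 19 related genes. For the ratios within pairs it gave 1 (without siNC replicate 3) to 7 pairs, and 2 without siNC replicate 6.

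Signs turned in members and ratios that were not called. Upper quartile scaling gave -0.00080 for HNRNPUL1 and -7.0e-05 for TIA1. The libraries with more IL1B gave 0.0011 for HNRNPU, -0.01454 for TIA1 and -0.01354 for TIAL1, and those with less gave 0.02096 for PCBP2, -0.01247 for HNRNPUL1 and -0.01292 for TAF15. Leaving out 1 library gave -0.02172 to 0.03209 for TIA1, -0.02202 to 0.01052 for PCBP2, -0.002629 to 0.02763 for TIAL1, -0.048 to 0.03928 for TAF15, -0.04162 to 0.02566 for HNRNPH1 against HNRNPF and -0.02616 to 0.0191 for TIA1 against TIAL1. The cause was not tested.

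Replicate numbers gave no pairing: between libraries with the same number, deviations from the group means had correlations of -0.077 to 0.018, and 0 of 6 correlated best with their own number. With the replicate block 12 members were called (0 higher, 12 lower), 4902 genes over the whole table and 15 related genes; HNRNPF was gained (adjusted p 0.0365) and HNRNPA2B1, HNRNPC, HNRNPH1, HNRNPLL and EWSR1 were lost (adjusted p 0.0564 to 0.107). Under the block 0 of the 16 pairs passed the exact sign-flip permutation test (smallest p possible 0.03125, smallest adjusted p 0.125). Every member passed the filter on low counts, and KHDRBS3 had the fewest counts, 555 in its lowest library.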
